A study of Homo sapiens with 6 samples.

Results

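The 5 genes of mismatch recognition, the MutS homologues MSH3 and MSH6 and the MutL homologues MLH3, PMS1 and PMS2, were followed in IGROV-1 cells, an established human ovarian carcinoma line. All probes whose platform annotation named one of these 5 genes were taken, which gave 9 of the 48801 probes on the array and 5 of its 18852 named genes. IGROV-1 cells were kept for 24 h in culture medium and cell-free ascites at equal volumes. The ascites came from mice with intraperitoneal IGROV-1 growth, which had been given saline (3 arrays) or the CpG oligodeoxynucleotide ODN1826, a synthetic agonist of Toll-like receptor 9, at 20 µg per mouse (3 arrays). The mice received CpG once or on 3 consecutive days, and the labels do not say which schedule stands behind an array. Nor do they tie an array to a mouse or a culture, so the p-values rest on a spread that could be technical.

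Mismatch repair corrects base mispairs and small loops that DNA replication leaves in the new strand. MutS proteins work as pairs that find the error: MSH6 is the partner of the pair that binds base mismatches and very short loops, and MSH3 of the pair that binds longer insertion and deletion loops. MutL proteins also work as pairs and are called in next. PMS2 carries the endonuclease that nicks the new strand, MLH3 has an endonuclease known mainly for meiotic crossing over, and PMS1 forms a pair whose role in human mismatch repair is less clear. Cells that lack this pathway accumulate changes in microsatellites and tolerate some DNA-damaging drugs, cisplatin among them.

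The promoters of PMS1 and MSH3 are shown first because these are the genes with a probe at which the CpG arrays and the saline arrays did not overlap after normalization. Each sequence runs 5′ to 3′ from 250 bases before to 50 bases after the annotated start (RefSeq, GRCh38.p14). Capitals mark matches on either strand to any of 4 motifs. The GC box was searched with the letters GGGCGG. The E2F-type site was searched with the letters TTTNNCGC. The TATA box was searched with the letters TATAAA. The CCAAT box was searched with the letters of its name. The window of PMS1 is chr2:189784200-189784499 and that of MSH3 is chr5:80654402-80654701, both on the plus strand.
PMS1: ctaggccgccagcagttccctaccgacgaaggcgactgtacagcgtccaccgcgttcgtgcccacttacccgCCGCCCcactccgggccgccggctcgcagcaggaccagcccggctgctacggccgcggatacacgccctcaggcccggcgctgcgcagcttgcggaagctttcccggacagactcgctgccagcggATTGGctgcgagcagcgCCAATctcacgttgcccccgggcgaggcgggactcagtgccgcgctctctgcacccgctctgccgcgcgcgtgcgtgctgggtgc
MSH3: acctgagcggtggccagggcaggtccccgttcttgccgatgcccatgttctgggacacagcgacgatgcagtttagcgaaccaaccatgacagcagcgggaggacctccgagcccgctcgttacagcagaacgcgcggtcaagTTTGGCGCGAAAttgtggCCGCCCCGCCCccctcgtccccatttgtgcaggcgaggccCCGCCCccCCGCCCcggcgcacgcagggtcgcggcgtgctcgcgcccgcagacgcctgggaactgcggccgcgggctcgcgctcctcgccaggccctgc
The PMS1 window held 1 GC box match and 2 CCAAT matches. The MSH3 window held 4 GC box matches and 2 E2F-type matches, which overlap each other, as do the first 2 GC box matches. Over all 35116 promoter windows of the same length, 45.0% held a GC box match, 34.6% a CCAAT match, 6.89% an E2F-type match and 11.5% a TATA match. All 5 genes were matched in the promoter table, with 9 windows between them, and 0 of the 9 held a TATA match. Some MSH6 windows overlap each other, as do both PMS2 windows, so the 9 are not separate sequences. An E2F-type match was also present in 1 MSH6 window and in both PMS2 windows, where it is the same site. The MLH3 window held no match to any of the 4 motifs. GC content ran from 51.0% in the MLH3 window to 78.0% in an MSH6 window. These are letter matches only, and binding was not measured.

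Mean probe intensity per array ran from 587 to 788, and 13303 to 13835 probes lay above background (detection p under 0.01). Of 9 epithelial and ovarian markers, 5 (EPCAM, FOLR1, KRT19, MUC1 and PAX8) were above background on all 6 arrays, although KRT8 and MUC16 were on none. Of the 9 leukocyte markers with a probe, 7 were above background on no array, PTPRC among them, while CD68 was on all 6. Likewise 6 of 7 fibroblast and 3 of 5 mesothelial markers were above background on none. CpG ascites 1 stood apart. Its correlation with the other arrays across probes was 0.948 to 0.958, against 0.978 to 0.992 among the other 5, and it held 189 probes lower than the saline mean by over 4-fold, against at most 1 probe on any other array. Many of the results below are therefore also given without it.

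Of the 9 probes, 7 were above background on at least 3 of the 6 arrays and were tested, with at least 1 probe for each of the 5 genes. After Benjamini-Hochberg adjustment over all 13713 probes tested in limma, 0 of the 7 differed between CpG ascites and saline ascites, where the background of calls was 0% (0 of 13713). The adjusted p of the 7 ran from 0.378 to 0.956. An unadjusted p under 0.05 was reached by 1 of the 7, PMS1, which was lower, beside 12.8% of all probes in either direction and 5.97% lower. Of the 7, 3 had no overlap between groups, beside 20.7% of all probes. These were 1 with higher and 2 with lower CpG values, beside 10.9% and 9.82% of all probes. Without CpG ascites 1, again 0 of the 7 passed after adjustment (0.153% of all probes did) and 1 had an unadjusted p under 0.05 (14.9% of all probes). The 7 log2 changes ran from -0.67 to 0.37, with 2 above and 5 below 0.

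**Figure D1:**
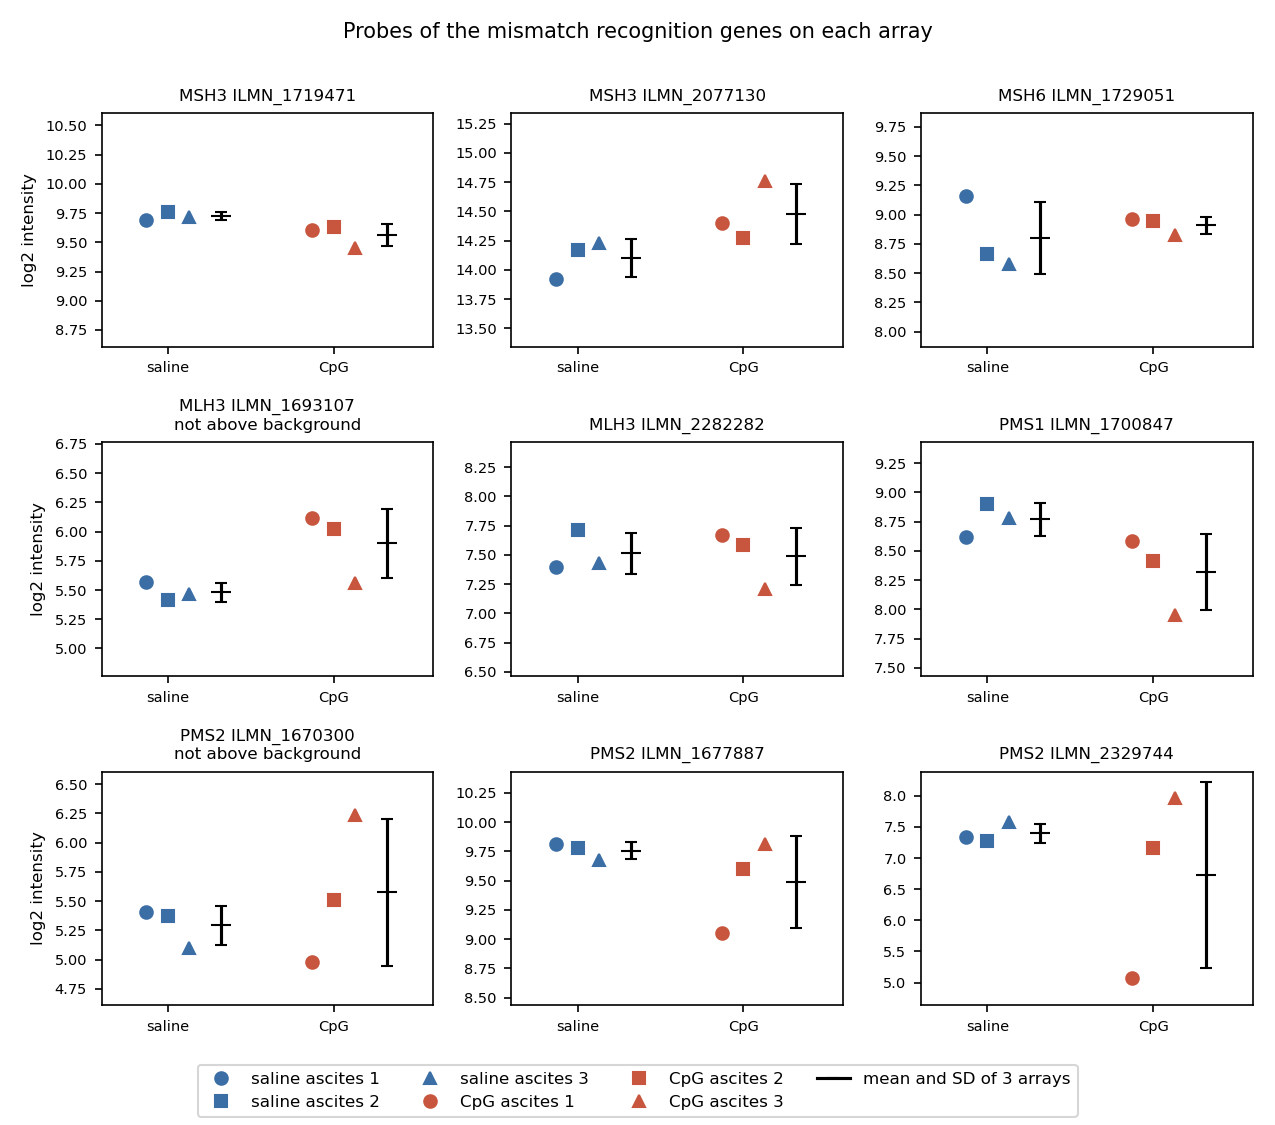
Log2 intensity (vertical axis, a separate range for each panel) of the 9 probes on the 3 saline arrays and the 3 CpG arrays, with the mean and SD of 3 arrays as a black bar. The groups did not overlap at both MSH3 probes and at PMS1, and PMS2 probe ILMN_2329744 was at 5.07 on CpG ascites 1 and at 7.16 to 7.96 on the other arrays. Probes of different genes are not comparable in level.

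MSH6, the partner that directs recognition of base mismatches, has a single probe. Its log2 intensity was 9.16, 8.67 and 8.58 on the saline arrays and 8.96, 8.94 and 8.82 on the CpG arrays. All CpG values lay inside the saline range, whose width comes from saline ascites 1. The group means were 8.80 ± 0.31 (SD, n = 3) and 8.91 ± 0.07 (SD, n = 3). The log2 change of 0.11 ± 0.17 (SE) had an adjusted p of 0.811 in limma and a 95% confidence interval of -0.30 to 0.51, which runs from 0.813 to 1.43 times the saline level. A change larger than that in either direction lies outside the interval, and a smaller one could not be resolved with 3 arrays per group. The sign rests on 1 array, since without saline ascites 3 the log2 change was -0.00325.

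MSH3, the partner that directs recognition of longer loops, has 2 probes, and their CpG values lay on opposite sides of saline. On ILMN_2077130 the log2 intensity was 13.92, 14.17 and 14.23 on the saline arrays and 14.40, 14.27 and 14.76 on the CpG arrays. Every CpG array was above every saline array, with CpG ascites 3 the highest. On ILMN_1719471 it was 9.69, 9.76 and 9.72 on the saline arrays and 9.60, 9.63 and 9.45 on the CpG arrays. Here every CpG array was below every saline array, and CpG ascites 3 was the lowest.

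The log2 change was 0.37 ± 0.17 (SE) on ILMN_2077130 (adjusted p 0.408 in limma) and -0.16 ± 0.12 on ILMN_1719471 (adjusted p 0.583). Neither passed. The 95% confidence interval ran from 0.987 to 1.70 times the saline level on the first probe and from 0.738 to 1.08 times on the second. Without CpG ascites 3 the first had a log2 change of 0.23, and without CpG ascites 1 it had 0.41. The difference between the probes within an array was 4.23, 4.41 and 4.51 in saline ascites and 4.80, 4.64 and 5.31 in CpG ascites on the log2 scale. The shift of 0.54 restates the opposite sides on which the probes lay, and no test is given for it. The probes give no single direction for MSH3 as a gene. Which transcripts each of them reads was not tested, since probe sequences were not used here. The unprocessed intensity of ILMN_2077130 was 14291 to 20467 in saline ascites and 19822 to 25293 in CpG ascites, and that of ILMN_1719471 was 828 to 996 and 660 to 1060. Before normalization both probes overlapped between groups.

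PMS1 is the member with the smallest p. Its log2 intensity was 8.62, 8.90 and 8.78 on the saline arrays and 8.59, 8.42 and 7.95 on the CpG arrays. All CpG values were below all saline values, but CpG ascites 1 lay just under saline ascites 1, and CpG ascites 3 was the lowest by a wide margin. The unprocessed intensity was 444 to 592 in saline ascites and 299 to 512 in CpG ascites, so before normalization the groups overlapped. The means were 8.77 ± 0.14 (SD, n = 3) and 8.32 ± 0.33 (SD, n = 3). The log2 change was -0.45 ± 0.19 (SE), which is 0.732 times the saline level with a 95% confidence interval of 0.541 to 0.991. Its unadjusted p of 0.0449 ranked 1625th of 13713 probes, and its adjusted p in limma was 0.378. Without CpG ascites 1 the log2 change was -0.58 ± 0.17 (adjusted p 0.188), and without CpG ascites 3 it was -0.27.

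The start of PMS1 lies 111 bases from one annotated start of ORMDL1, which is transcribed from the opposite strand and encodes a regulator of sphingolipid synthesis. ORMDL1 was singled out for this position after its values were seen. On its most intense probe, ILMN_1698406, the log2 intensity was 10.98, 11.17 and 11.19 in saline ascites and 11.17, 10.92 and 10.69 in CpG ascites. The groups overlapped, and CpG ascites 3 was the lowest array, as it was for PMS1. The log2 change was -0.19 ± 0.16 (SE, adjusted p 0.634 in limma) on that probe and -0.10 ± 0.24 (adjusted p 0.873) on ILMN_2045975. Without CpG ascites 1 the changes were -0.31 ± 0.14 (adjusted p 0.356), where the groups no longer overlapped, and -0.32 ± 0.20 (adjusted p 0.497).

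PMS2, the MutL subunit that cuts the strand to be corrected, has 3 probes, 2 of them tested. On ILMN_1677887 the log2 intensity was 9.81, 9.78 and 9.68 on the saline arrays and 9.05, 9.60 and 9.81 on the CpG arrays. On ILMN_2329744 it was 7.34, 7.28 and 7.57 in saline ascites and 5.07, 7.16 and 7.96 in CpG ascites. Both probes were lowest on CpG ascites 1 and, among the CpG arrays, highest on CpG ascites 3, and on CpG ascites 1 the second was not above background (detection p 0.258). Relative to the saline mean, CpG ascites 1 was at -0.70 on the first probe and at -2.33 on the second, on the log2 scale.

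The log2 changes of PMS2 were -0.27 ± 0.20 (SE, adjusted p 0.593 in limma) on ILMN_1677887 and -0.67 ± 0.64 (adjusted p 0.674) on ILMN_2329744, where 2 of 3 CpG arrays were above background. Without CpG ascites 1 they were -0.05 ± 0.13 (adjusted p 0.901) and 0.16 ± 0.23 (adjusted p 0.795), so the size of the first and the sign of the second rest on that array. Its 95% confidence interval on ILMN_1677887 without CpG ascites 1 ran from -0.35 to 0.25. The third probe, ILMN_1670300, was above background on no array, at 5.10 to 5.41 in saline ascites and 4.98 to 6.23 in CpG ascites, and has no fold change.

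**Figure D2:**
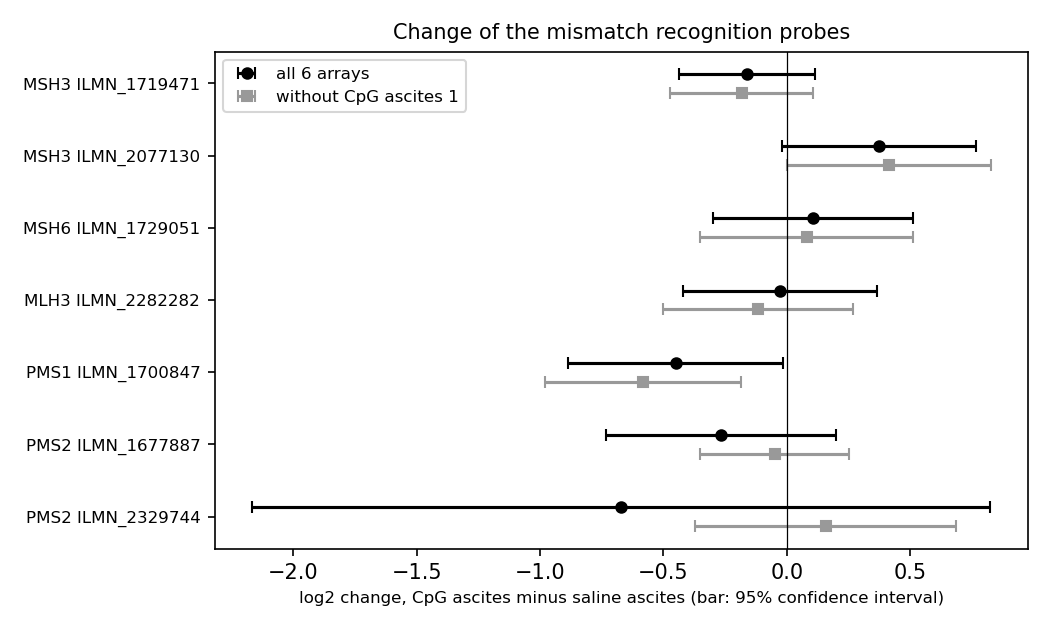
Log2 change, CpG ascites minus saline ascites, of the 7 tested probes (points) with 95% confidence intervals (bars), over all 6 arrays (black circles) and without CpG ascites 1 (grey squares). Over all 6 arrays the interval of PMS1 alone lay to one side of 0, ending at -0.01 before adjustment for multiple testing, and PMS2 probe ILMN_2329744 moved from -0.67 to 0.16 when CpG ascites 1 was left out.

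PMS2 has near-identical relatives in the genome, and array probes can be shared between such copies. PMS2CL, a PMS2-like pseudogene, and PMS2P2, another PMS2 pseudogene, were the 2 of 15 listed relatives with a probe here. Probe sequences were not used here, so how far the probes of PMS2, PMS2CL and PMS2P2 read each other's transcripts is uncertain. PMS2CL probe ILMN_2262203 was at 8.25, 7.76 and 7.87 in saline ascites and 5.66, 8.03 and 7.84 in CpG ascites. PMS2CL probe ILMN_2262198 was at 7.02, 7.10 and 7.08 in saline ascites and 5.53, 6.81 and 7.53 in CpG ascites. Both were lowest on CpG ascites 1, at -2.30 and -1.53 relative to the saline mean, and neither was above background there. The PMS2 probe ILMN_2329744 and the PMS2CL probe ILMN_2262203 were therefore among the 189 low probes of this array.

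PMS2P2 differed in pattern. Its log2 intensity was 9.18, 9.37 and 9.42 in saline ascites and 8.24, 8.72 and 8.84 in CpG ascites. All CpG arrays were below all saline arrays, not CpG ascites 1 alone. The log2 change was -0.72 ± 0.18 (SE, unadjusted p 0.00462, adjusted p 0.226 in limma), and -0.54 without CpG ascites 1. PMS2CL had -0.78 ± 0.58 (adjusted p 0.586) on its most intense probe, and -0.03 without CpG ascites 1.

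**Figure D3:**
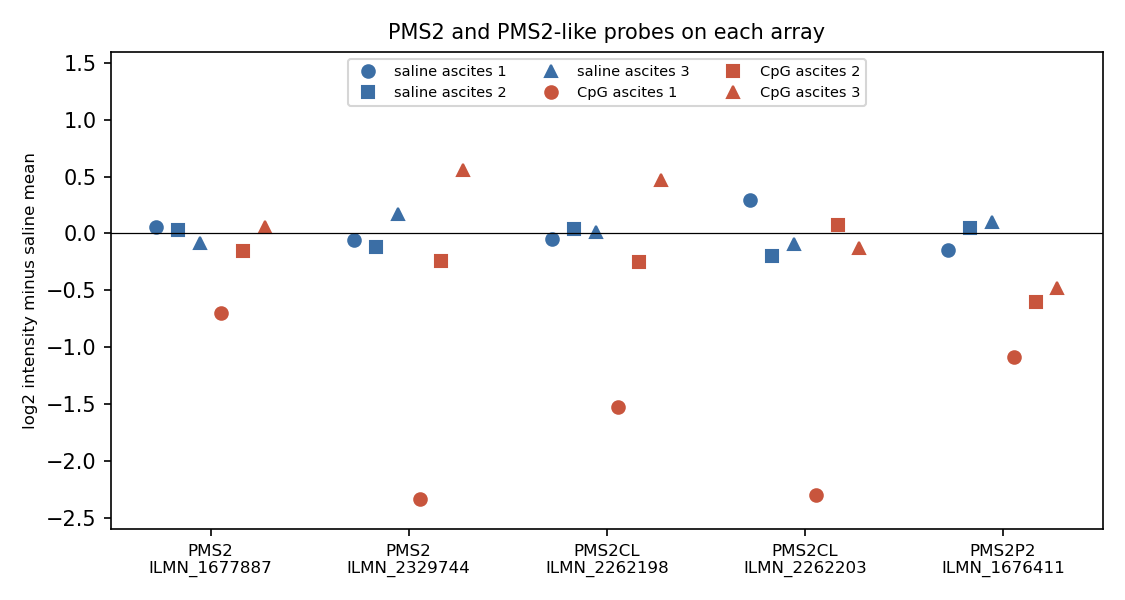
Log2 intensity minus the saline mean of the same probe (vertical axis) for the 2 tested PMS2 probes and the 3 tested PMS2CL and PMS2P2 probes, with a symbol for each array. CpG ascites 1 is the lowest array on all 5 probes, from -0.70 to -2.33 relative to the saline mean, and on PMS2P2 alone are all 3 CpG arrays below all 3 saline arrays.

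MLH3, the MutL partner known for meiotic crossing over, has 2 probes, 1 of them tested. On ILMN_2282282 the log2 intensity was 7.40, 7.72 and 7.43 on the saline arrays and 7.67, 7.59 and 7.21 on the CpG arrays. The groups overlapped, with a log2 change of -0.03 ± 0.17 (SE, adjusted p 0.956 in limma). The 95% confidence interval ran from 0.748 to 1.29 times the saline level, and the sign turned when saline ascites 2 (0.08) or CpG ascites 3 (0.11) was left out. The other probe, ILMN_1693107, was above background on no array, at 5.41 to 5.57 in saline ascites and 5.56 to 6.12 in CpG ascites, and has no fold change.

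The meiotic MutS genes MSH4 and MSH5, which form a pair that stabilises crossover intermediates, served for comparison. MSH4 was above background on no array. MSH5 was above background on all 6 arrays on 3 of its 5 probes, and the log2 intensity on the most intense, ILMN_2325394, was 9.15, 8.94 and 9.06 in saline ascites and 9.81, 9.41 and 9.58 in CpG ascites. The CpG arrays were all above the saline arrays. The 3 probes had log2 changes of 0.55 ± 0.15 (SE), 0.49 ± 0.15 and 0.34 ± 0.18, with adjusted p of 0.244, 0.283 and 0.468 in limma, so none passed. When CpG ascites 1 was left out they were 0.44, 0.51 and 0.18. Of the other two, ILMN_1675708 was above background on 2 saline arrays and no CpG array, at 6.46 to 6.83 and 5.56 to 6.47, and ILMN_1651787 was above background on 1 CpG array.

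Steps after recognition were read from 20 genes that remove and refill the strand or ligate it: the exonuclease EXO1, the clamp PCNA and its loader, single-strand binding protein, DNA polymerases, RNase H2, HMGB1 and the ligase LIG1. Of these, 18 were tested, and on their most intense probes 0 passed after adjustment over all probes. On these probes, an unadjusted p under 0.05 was reached by 3 with higher and 1 with lower values, beside 6.66% and 4.92% of the 9211 named genes in each direction. The median log2 change was -0.03, against 0.01 over all named genes, and it was 0.04 without CpG ascites 1. The higher values were those of POLD3, a subunit of DNA polymerase delta (0.68 ± 0.16, SE), POLE, the catalytic subunit of DNA polymerase epsilon (0.49 ± 0.19), and LIG1, which seals the repaired strand (0.45 ± 0.13).

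LIG1 had the tightest groups of the 3, at 8.99, 8.83 and 8.74 in saline ascites and 9.23, 9.35 and 9.33 in CpG ascites, with no overlap and an adjusted p of 0.264 in limma. The gene with lower values on its most intense probe was RNASEH2B, a subunit of the RNase that removes ribonucleotides from DNA. It was at 10.71, 10.36 and 10.37 in saline ascites and 9.80, 10.22 and 9.68 in CpG ascites, a log2 change of -0.58 ± 0.18 (adjusted p 0.284). Its groups did not overlap either. EXO1 and PCNA, at -0.01 ± 0.18 and -0.05 ± 0.12, were near 0 on their most intense probes. Their other tested probes had 0.54 ± 0.26 and 0.41 ± 0.25, and POLE had 0.33 without CpG ascites 1. Without that array the other EXO1 probe had 0.36 and the other PCNA probe 0.62. The groups no longer overlapped on that PCNA probe (adjusted p 0.251 in limma), which was above background on 3 of the 6 arrays.

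HMGB1, a chromatin protein that also takes part in mismatch excision in purified systems, has 2 tested probes that disagreed, and it was singled out for this after its values were seen. On ILMN_1791466 the log2 intensity was 8.81, 9.09 and 9.20 in saline ascites and 7.80, 7.75 and 7.37 in CpG ascites. On ILMN_2231242 it was 8.86, 9.08 and 8.97 in saline ascites and 8.93, 9.04 and 8.91 in CpG ascites. This second probe stands for the gene above, being the more intense on average over all 6 arrays. In saline ascites alone ILMN_1791466 had the higher mean (9.04 against 8.97), so that choice rests on the CpG values. The list counts and median above therefore leave ILMN_1791466 out. All CpG arrays were below all saline arrays on the first probe, and the groups overlapped on the second. The log2 changes were -1.40 ± 0.17 (SE, adjusted p 0.116 in limma) and -0.01 ± 0.12 (adjusted p 0.977). Without CpG ascites 1 the first was -1.48 ± 0.17 and passed (adjusted p 0.049), while the second was 0.01 ± 0.13 (adjusted p 0.989).

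Partners and regulators of mismatch repair proteins made a list of 9, of which 5 were tested. None passed, and 0 had an unadjusted p under 0.05, beside 6.66% higher and 4.92% lower among named genes. All 5 had means above saline (median log2 change 0.21), as did 4756 of the 9211 named genes. The deacetylase gene HDAC6 had 0.43 ± 0.20 (SE, adjusted p 0.415 in limma) and the thymine glycosylase gene MBD4 0.24 ± 0.16 (0.537). For MCM8, a helicase gene, the most intense probe had 0.21 ± 0.22 and another -0.36 ± 0.18, and SETD2, which writes the histone mark that MSH6 reads, had 0.16 ± 0.18. SETD2 had 0.02 and the MCM8 probes 0.34 and -0.47 without CpG ascites 1.

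Since mismatch repair genes are used in replicating cells, 20 genes of DNA replication and S phase were read beside them. Of the 17 tested, 0 passed after adjustment, while 2 with higher and 0 with lower values had an unadjusted p under 0.05, beside 6.66% and 4.92% of named genes. Separate groups were seen at 4 higher and 0 lower genes, beside 11.1% and 9.3% of named genes. The median log2 change was 0.11, or 0.13 without CpG ascites 1. MCM2, a subunit of the replicative helicase, was at 9.51, 9.50 and 9.48 in saline ascites and 9.85, 9.86 and 10.14 in CpG ascites, a log2 change of 0.45 ± 0.13 (SE, adjusted p 0.271 in limma). ORC1, of the origin recognition complex, had 0.57 ± 0.21 (adjusted p 0.330), MCM5 of the same helicase 0.24 ± 0.12 (0.460) and the licensing factor gene CDC6 -0.28 ± 0.18 (0.548). ORC1 was above background on 2 of 3 saline arrays, and CDC6 had -0.14 without CpG ascites 1.

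**Figure D4:**
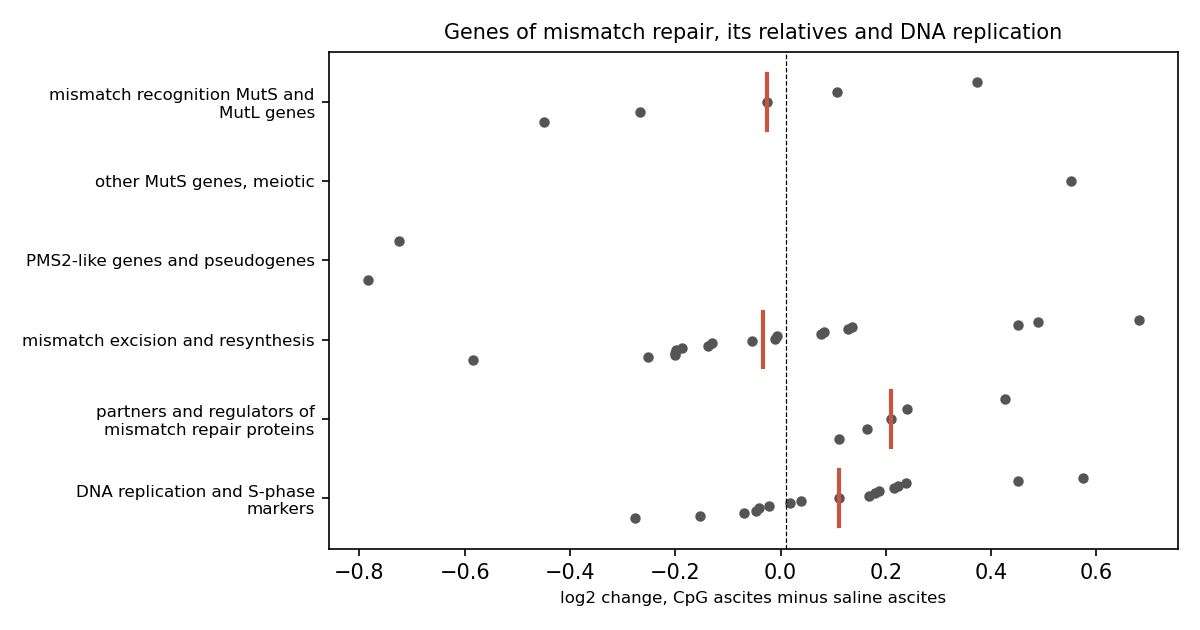
Log2 change, CpG ascites minus saline ascites, of the most intense probe of each tested gene (grey points), by gene list. MSH3 is shown by ILMN_2077130 (0.37) and HMGB1 by ILMN_2231242 (-0.01), and their other probes are left out. Red bars are medians of lists with at least 5 tested genes (-0.03 for mismatch recognition, -0.03 for excision and resynthesis, 0.21 for partners, 0.11 for DNA replication), and the dashed line is the median of all named genes at 0.01.

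The 5 mismatch recognition genes had a median log2 change of -0.03 on their most intense probes. It ran from -0.08 without saline ascites 1 to 0.11 without CpG ascites 3, so it has no settled sign. MSH3 enters this median through ILMN_2077130 (0.37), while its other tested probe had -0.16. The median was -0.03 when the tested probes of a gene were averaged, and -0.16 over the 7 tested probes. The members did not share a pattern over the arrays. CpG ascites 3 held the highest value of the 6 arrays for MSH3 on ILMN_2077130 and PMS2 on ILMN_2329744 and the lowest for PMS1 and MLH3, while MSH6 was highest on saline ascites 1.

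For each member, the named genes closest in pattern were sought by Pearson correlation over the 6 arrays, among 10570 named probes above background on all arrays. With so few arrays, 18 to 583 of those probes had a correlation above 0.9 with a member, so these are descriptions only. MSH6 lay closest to C15orf40 (0.992) and NR0B2 (0.977), and MLH3 to SMYD2 (0.990) and BUB3 (0.978). MSH3 lay closest to SUPT6H (0.993) and USF2 (0.987) on its most intense probe, and PMS1 to SRSF11 (0.995) and GTPBP8 (0.995). PMS2 lay closest to ABHD11 (0.998) and LINC01091 (0.998), and had the 583 probes above 0.9. On the PMS2 probe used, ILMN_1677887, CpG ascites 1 was at -0.70 relative to the saline mean and the other arrays at -0.15 to 0.06. The correlations were not computed without CpG ascites 1. All of them share the same 6 arrays.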

How the data were processed

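RNA of 6 IGROV-1 samples was hybridised to 1-colour Illumina bead arrays, which were summarised with BeadStudio, per the submitters' processing notes. The deposited probe intensity is not normalized and comes with a detection p-value for each probe and array, per the file headers. A second deposited table holds the authors' processed intensity on a linear scale, whose method the sources used here do not give, and it served as an alternative. No genome build or aligner applies to the values.

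Intensities were corrected and normalized with neqc of limma 3.58.1 in R 4.3.3 (offset 16, quantile normalization, log2). Probes with a detection p under 0.01 on at least 3 of the 6 arrays were kept, 13713 in all. Gene names came from the platform annotation: 28097 probes had 1 symbol, 13 several and 20691 none, and symbols were updated by gene number for 28058. Groups followed the sample titles. The comparison used lmFit and eBayes of limma, two-sided, without covariates, with Benjamini-Hochberg adjustment over all kept probes and a threshold of 0.05. The fit was tested on simulated data. The probe most intense on average over all 6 arrays, CpG arrays included, stood for a gene in lists. Members, lists and rules were chosen with earlier results of these data known. All member probes are named, with up to 4 genes of smallest p from each other list and the 2 genes closest in pattern to each member. The number of arrays limits the precision. Beyond these 5 genes and the meiotic MSH4 and MSH5, other members of the MutS and MutL families are not reported here. Same-numbered saline and CpG arrays were checked for pairing, and the numbers were not taken to pair them. Alternatives were other background corrections and scalings, the authors' values, other filters, array weights, a variance trend, a block for the replicate number and each array left out.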

Additional observations from a re-analysis of the deposited data

How the results depend on the processing

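No mismatch recognition probe passed the threshold under any of the 15 alternatives run. The authors' values and no background correction gave nearly equal log2 changes (-0.356 and -0.355 for PMS1), so they hardly count as separate alternatives. The count over all probes was 0 higher and 0 lower. Without CpG ascites replicate 1 it was 3 higher and 18 lower, with a mean-variance trend 14 were lower, and with no background correction or with the authors' values 1 was lower. With 1 array left out, the count ran from 0 to 3 higher and from 0 to 18 lower. With 1 array left out, MSH6 ran from -0.00325 (without saline ascites replicate 3, where it turned) to 0.284. MLH3 turned to 0.0442 with median scaling, to 0.08 without saline ascites replicate 2 and to 0.11 without CpG ascites replicate 3, and was lowest at -0.116 without CpG ascites replicate 1. PMS2 probe ILMN_2329744 turned to 0.16 without CpG ascites replicate 1. Under the other settings run for it, its log2 change ran from -1.29 (without CpG ascites replicate 3) to -0.279 (array weights), with -0.321 with no background correction, -0.322 with the authors' values and -0.401 with normexp, and it was not tested when all 6 arrays had to be above background. Both MSH3 probes, PMS1 and PMS2 probe ILMN_1677887 kept their direction in all 15. PMS1 ran from -0.58 to -0.27, with adjusted p from 0.188 upward. The median of the 5 genes was 0.0442 with median scaling and ran from -0.0844 to 0.113 with 1 array left out. The median of excision and resynthesis was 0.0638 with median scaling, 0.0576 when probes of a gene were averaged, and ran from -0.0588 to 0.0391 with 1 array left out. The cause of these moves was not tested.

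Median scaling shifted the median of all probes to 0.08. With the replicate number as a block, 0 of the 7 probes and 0 of all probes passed, and PMS1 had a log2 change of -0.45 with an adjusted p of 0.479 in limma. Deviations from the group means of same-numbered arrays correlated at -0.102, 0.0144 and -0.0213, against -0.0755 to 0.091 for arrays of unlike number. With 3 arrays per group this check cannot exclude a shared culture or chip, so whether the numbers mark pairs is not known. The chip as a block was not run, since the column names give no chip.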
